A study of Mus musculus with 6 samples.

Results

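Integrins are paired receptors of 1 alpha and 1 beta subunit that hold cells to matrix or to other cells, and laminins are basement membrane proteins built of 1 alpha, 1 beta and 1 gamma chain. Their genes were compared between proliferating satellite cells of Magic-F1+/+ mice and control satellite cells, all from skeletal muscle of female mice. Genes were taken by name: every non-control spot of the array whose gene name began with Itga or Itgb followed by a digit or by d, e, l, m, v or x, or with Lama, Lamb or Lamc followed by a digit. This gave 106 of 43379 spots, 88 of 41174 probes and 42 genes. Of the 42 genes, 26 encode integrin subunits and 11 encode laminin chains, while the other 5 carry an integrin in their name without encoding a subunit and are described apart. Of the 37 subunit genes, 30 had a probe bright enough to test (23 integrin and 7 laminin genes), out of 13032 genes tested in all.

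Magic-F1 is an engineered factor derived from hepatocyte growth factor, the ligand of the receptor Met, and the Magic-F1+/+ animals carry it on both alleles per the series' design text. Each group had 3 single-colour arrays, described by the submitters as biological triplicates. The titles name the Magic-F1 cells "Omo Sat" and the control cells "MLC3F Sat", without saying what else the MLC3F cells carry. The ages of the mice, the promoter behind Magic-F1 and whether animals were pooled are not given in the sources used here.

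Integrin beta 1 pairs with many alpha subunits and is present on most cells. In skeletal muscle, alpha 7 with beta 1 is the main laminin-binding integrin, differentiated muscle makes the splice form beta 1D, and laminins with the alpha 2 chain form the muscle basement membrane. The beta 2 integrins (alpha L, alpha M and alpha X with beta 2) are made by leukocytes, and alpha IIb with beta 3 is the fibrinogen receptor of platelets. Integrins with alpha v bind vitronectin, fibronectin and latent TGF-beta, while alpha 6 with beta 4, and laminins with the alpha 3 and beta 3 chains, anchor epithelia.

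The arrays of a group correlated at no less than 0.996 over all tested probes, and the highest correlation between arrays of different groups was 0.848. The 75th percentile of the processed signal was used to scale each array. It was 341 to 356 on the Magic-F1 arrays and 275 to 292 on the control arrays. Of the non-control spots, 49.2% to 52.0% were well above background and 0 were saturated. The groups differed over most of the transcriptome. Of all tested genes, 89.1% were called different (limma, Benjamini-Hochberg adjusted p under 0.05, over all tested probes), 40.4% higher and 48.7% lower in Magic-F1, and 90.7% had values that did not overlap between groups. The labelled cell type was checked against its markers. All 11 tested muscle markers were lower in Magic-F1 (median log2 change −3.35), among them the myogenic factors Myod1 (0.32, 0.37 and 0.37 on the Magic-F1 arrays against 4.60, 4.66 and 4.44) and Myog (3.25, 3.25 and 3.21 against 7.86, 7.94 and 7.85). Both were well above background on every array. Pax7, also of the muscle list, was well above background on 0 Magic-F1 arrays and on 3 control arrays. It was at least 4.58-fold lower in Magic-F1. Macrophage markers were higher in 12 of 13 cases. In bulk RNA such as this, fewer cells of a type and less RNA per cell cannot be told apart.

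Levels below are log2 processed signals minus the array's own 75th percentile, so that 0 is the 75th percentile. They can be compared between arrays for 1 probe, not between probes. A summed level adds the linear signals of a list's probes, so the brightest probes lead it. A change is the Magic-F1 mean minus the control mean, with the standard error of the limma fit. Another background correction was normexp, a model of background plus signal. Its value is given too where it moved the fold of an integrin or laminin gene's brightest probe by over 1.5 times. For marker and partner genes it is not given. A fold given as "at least" holds for the processed signal only, and the normexp change can be smaller.

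The probes through which some of the results below were read are shown first, because what a probe matches decides which transcript is counted. The Itgb1 gene has 3 tested probes. The first is named only as integrin beta 1, and the file describes the second as made to the mRNA of beta 1D, the muscle splice form. The 60 bases of the beta 1D probe were placed by the file on positions that span a far longer stretch of genome than its own length, which sets it apart from the contiguous common probe, and its first 30 bases are given.
Itgb1, common probe, chr8:131246349-131246408 (mm9, plus strand): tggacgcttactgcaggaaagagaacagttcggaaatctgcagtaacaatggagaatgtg
Itgb1, beta 1D probe, within chr8:131250931-131255949 (mm9, plus strand): aactatggacgtaaagctggtctctgagtt
The probes of the muscle alpha 7 subunit, of the platelet subunit alpha IIb and of the laminin beta 2 chain are shown as the partners in the results on muscle, platelets and basement membrane.
Itga7, chr10:128390852-128390911 (mm9, plus strand): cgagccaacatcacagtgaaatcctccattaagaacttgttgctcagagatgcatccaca
Itga2b, chr11:102319453-102319661 (mm9, minus strand): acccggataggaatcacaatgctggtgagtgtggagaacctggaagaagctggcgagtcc
Lamb2, chr9:108392189-108392248 (mm9, plus strand): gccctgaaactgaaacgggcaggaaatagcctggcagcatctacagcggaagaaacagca
Which exon or untranslated region each probe lies in was not analysed here, as no annotation of mm9 was used.

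All 30 tested subunit genes were called different between the groups, against 89.1% of all tested genes. Of these, 17 were higher in Magic-F1 (40.4% of all genes were) and 13 were lower (48.7% of all genes were). At least 2-fold higher were 12 of the 30 (23.6% of all genes), and at least 2-fold lower were 10 (28.9% of all genes). The median change was 0.66 on the log2 scale, beside −0.17 over all tested genes. Values did not overlap between groups for 29 of the 30 genes (90.7% of all genes). That nearly every gene was called is close to the background of these arrays, so the direction and size of each gene carry more than its call. Of 15 alpha subunits 10 were higher (median 1.10), of 8 beta subunits 3 were (median −0.79), and of 7 laminin chains 4 were (median 0.60), shares whose differences were not tested.

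**Figure D1:**
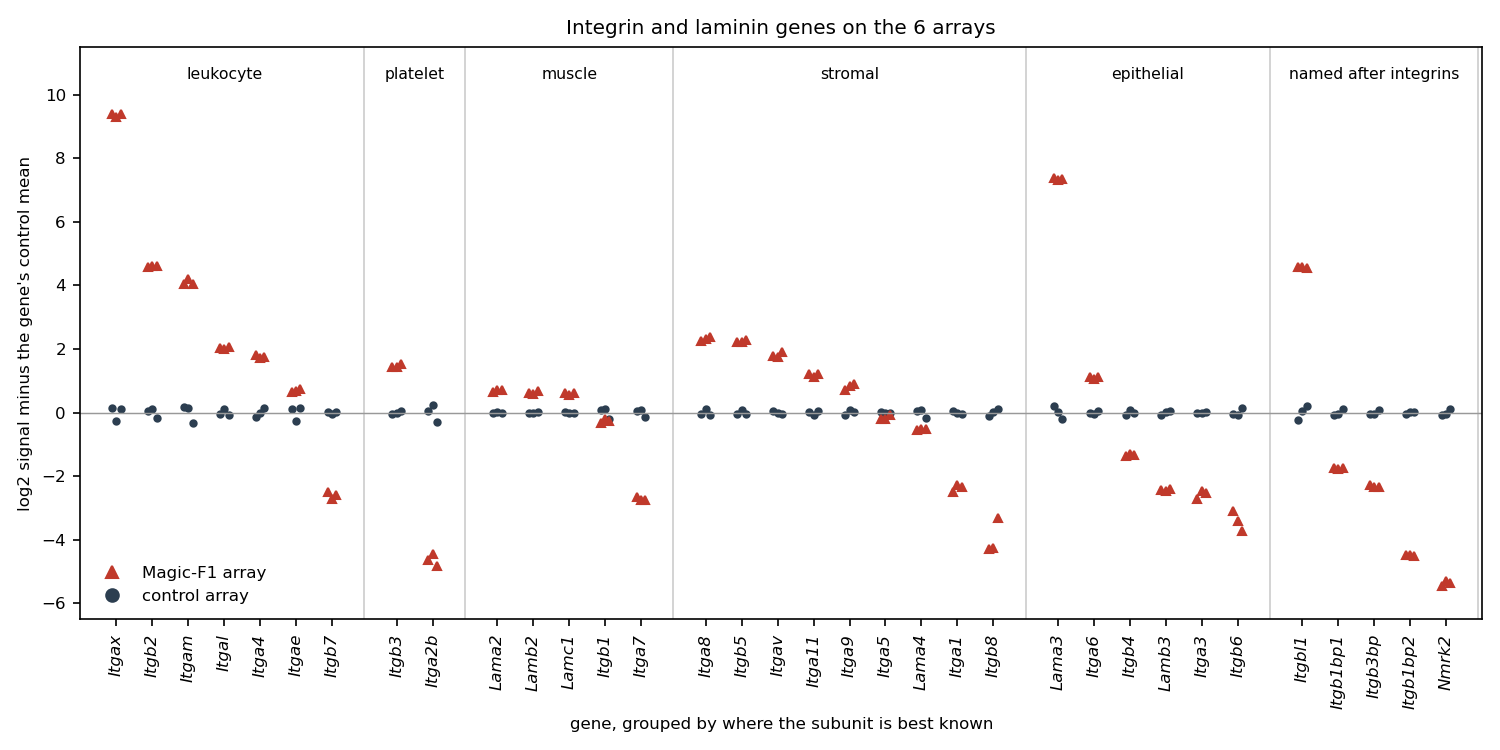
Log2 signal of the integrin and laminin genes shown on the 3 Magic-F1 arrays (red triangles) and the 3 control arrays (dark circles), relative to that gene's control mean, with genes grouped by where the subunit is best known. Of the 7 leukocyte subunits all except Itgb7 lie above 0 (Itgae at −0.03 with normexp), Itga2b lies near −4.64 beside Itgb3 at 1.47, and Itga7 is the lowest of the muscle group at −2.72.

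Most leukocyte integrin genes rose. Of 7 tested, 6 were higher in Magic-F1 and 1 was lower, with a median log2 change of 2.03; of the 6, Itgae did not keep its direction with normexp. Itgb2, the beta subunit common to alpha L, alpha M and alpha X, read 5.99, 6.01 and 6.02 on the Magic-F1 arrays and 1.46, 1.54 and 1.24 on the control arrays. Every Magic-F1 array was thus far above every control array, a change of 4.60 ± 0.083 (24.2-fold; limma adjusted p = 7.4e-08). Itgam, the alpha chain of the complement receptor CD11b/CD18, read 2.13, 2.30 and 2.14 against −1.74, −1.77 and −2.23. It rose by 4.10 ± 0.14, and by 3.30 with normexp.

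Itgax, which encodes CD11c of dendritic cells and of some macrophages, had the largest fitted change of the 30 genes. Its brightest probe read 4.54, 4.44 and 4.53 in Magic-F1 against −4.71, −5.13 and −4.76 in controls, and only 1 of the 3 control arrays was well above background. The fitted change was 9.37 ± 0.12, and 6.46 with normexp. A second Itgax probe read −2.61, −2.52 and −2.43, with control values of which none was well above background, and was at least 5.42-fold higher in Magic-F1. Both probes rose. Their control signals were at or below the edge of detection, so the sizes of the 2 rises cannot be set against each other.

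Itgal, the alpha chain of LFA-1, read 1.06, 1.05 and 1.09 in Magic-F1 and −1.0, −0.84 and −1.05 in controls. Its groups were well apart, with a change of 2.03 ± 0.066, and its second probe gave 3.75. The probes of Itgal, Itgam and Itgax lie on chromosome 7, at chr7:134477160-134477219, chr7:135260933-135260993 and chr7:135294052-135294111 (mm9), those of Itgam and Itgax close together. Itgad, the fourth alpha partner of beta 2, was not analysed here.

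Outside the beta 2 receptors the leukocyte genes divided. Itga4, which pairs with beta 1 or beta 7 and binds VCAM-1 and fibronectin, read −0.65, −0.73 and −0.71 in Magic-F1 against −2.59, −2.49 and −2.30. Its change was 1.76 ± 0.082, with 0.98 under normexp. Its second tested probe was well above background on no control array and at least 1.26-fold higher in Magic-F1. Itgb7, the beta subunit that joins alpha 4 or alpha E in lymphocytes and mast cells, read −2.71, −2.93 and −2.81 against −0.19, −0.28 and −0.19. It fell by 2.59 ± 0.070 (6.03-fold; a change of −1.78 with normexp), so the alpha 4 and beta 7 transcripts moved in opposite directions. Itgae, the alpha E partner of beta 7, was dim, at −3.25, −3.23 and −3.18 against −3.79, −4.19 and −3.76. It was called higher by 0.69 ± 0.12, but with normexp the change was −0.03 (adjusted p = 0.57), so no direction is drawn for it. Itgb2l, a beta 2-like gene, was not tested. It was well above background on 0 Magic-F1 arrays and on 2 of 3 control arrays, with a level at least 2.08-fold lower in Magic-F1.

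The other markers of white cells did not move as 1 group beside these genes. Of 13 tested macrophage markers 12 were higher in Magic-F1 (median 4.89), with the log2 of their summed level at 10.6 on all Magic-F1 arrays and 8.62 to 8.73 on the control arrays. The control sum was led by Lyz2, the 1 macrophage marker that was lower in Magic-F1, at 8.41, 8.52 and 8.52 on the control arrays. The receptor Adgre1 read 7.10, 7.11 and 7.09 against 2.24, 2.19 and 2.21, and Csf1r read 6.74, 6.71 and 6.81 against 0.75, 0.74 and 0.53. Of 12 tested neutrophil markers 11 were lower (median −8.16, summed level 1.90 to 1.97 against 9.20 to 9.31). Of the 12, 7 were well above background on every Magic-F1 array and all 12 on every control array. The size of the median was thus partly set by background. The brightest neutrophil probes on the Magic-F1 arrays were Csf3r (0.68, 0.70 and 0.74), the marker that was higher, and Mmp9 (0.62, 0.59 and 0.69). Mpo read −4.29, −4.43 and −4.37 against 5.89, 5.77 and 5.98, and S100a8 read −3.96, −3.94 and −3.70 against 3.55, 3.57 and 3.84. All 6 tested mast cell and basophil markers were lower (median −5.08, summed level −3.73 to −3.59 against 2.0 to 2.06), with 0 of the 6 well above background on every Magic-F1 array and all 6 on every control array. Lymphocyte markers were mixed, with 2 higher and 4 lower of 8, and Cd3e and Cd79a were not called. With 2 groups only, any gene that fell did so on the arrays where neutrophil, mast cell, muscle, platelet and epithelial markers fell. Any gene that rose did so where macrophage markers rose. Sharing a direction with a list therefore does not by itself tie Itgb7 or the beta 2 genes to it. The part of these markers in the integrin results was not tested.

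**Figure D2:**
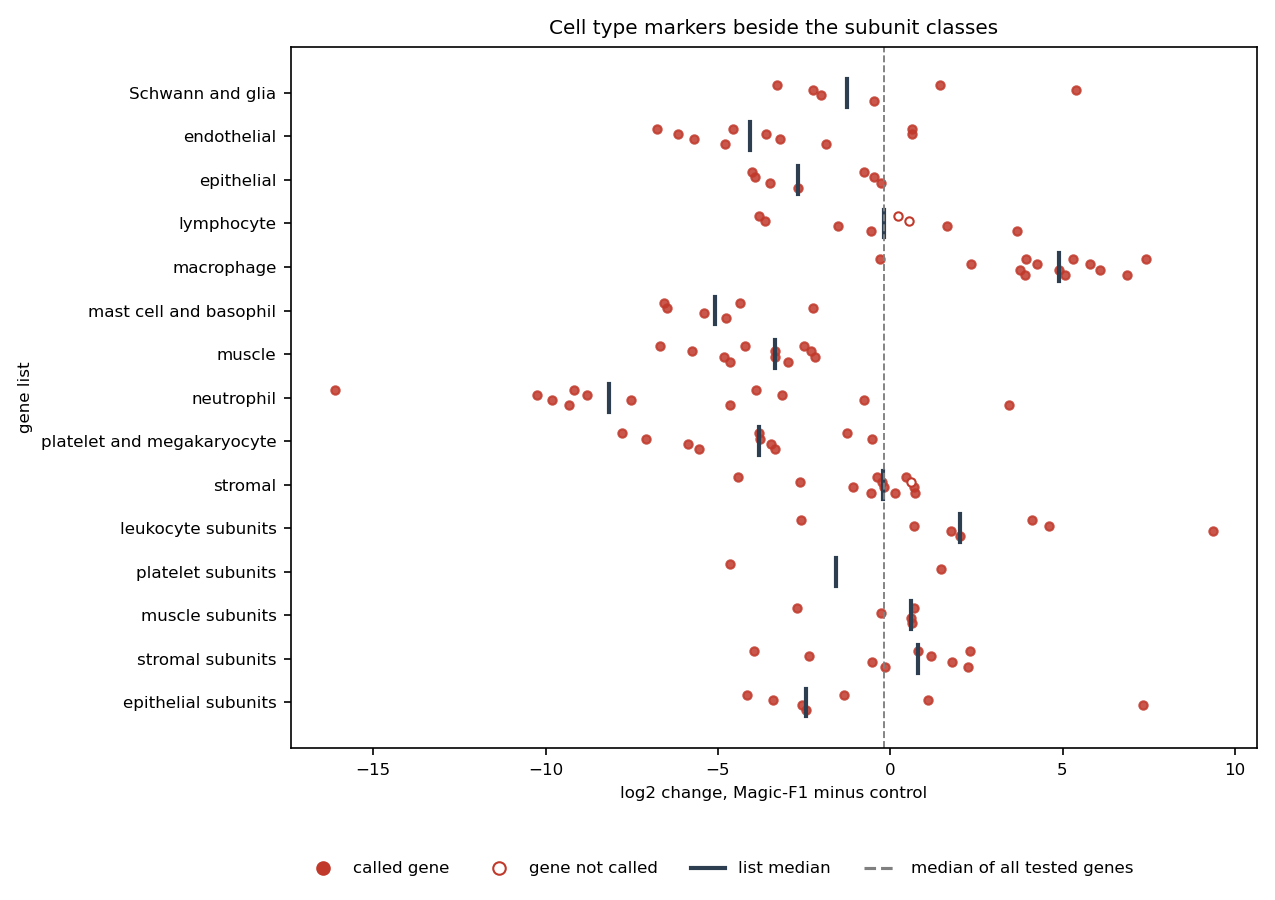
Log2 change (Magic-F1 minus control) of each tested cell type marker and of each tested subunit gene, 1 point per gene, with the list median as a dark bar and the median of all tested genes (−0.17) as a dashed line. Macrophage markers have a median of 4.89 and neutrophil markers one of −8.16, its size partly set by background, with the leukocyte subunits at 2.03. The epithelial subunits have a median of −2.43 (−1.33 with normexp) and the epithelial markers one of −2.68.

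Promoters of leukocyte and platelet subunits are shown because these genes moved together within a receptor family or apart from it. The sequences are the 250 bases before the annotated gene start, from RefSeq on GRCm38.p6, in the direction of the gene, and are not on the build of the probe positions. Of the 37 subunit genes, 24 were matched in the promoter table. Itgal, Itgb2, Itga7 and Itgb3 were among those not matched. Capitals mark, on either strand, GAGGAAG (a site type of the myeloid ETS factor PU.1), GGGCGG (Sp1) and CAGCTG (an E-box of the type bound by myogenic factors). TATAAA was searched for too, and the motifs searched do not overlap in the windows printed.
Itgam, chr7:128062390-128062639 (GRCm38.p6, plus strand): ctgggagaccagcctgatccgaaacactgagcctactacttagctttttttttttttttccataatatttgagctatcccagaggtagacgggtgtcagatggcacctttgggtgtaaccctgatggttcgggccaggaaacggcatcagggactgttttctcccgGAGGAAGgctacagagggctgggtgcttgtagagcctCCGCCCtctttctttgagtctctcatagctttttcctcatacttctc
Itgax, chr7:128129300-128129549 (GRCm38.p6, plus strand): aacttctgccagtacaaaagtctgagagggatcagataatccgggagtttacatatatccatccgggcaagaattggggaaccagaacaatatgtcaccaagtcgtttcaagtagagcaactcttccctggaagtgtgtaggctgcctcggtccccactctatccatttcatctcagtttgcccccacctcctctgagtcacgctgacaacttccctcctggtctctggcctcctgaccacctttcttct
Itgb7, chr15:102231936-102232185 (GRCm38.p6, minus strand): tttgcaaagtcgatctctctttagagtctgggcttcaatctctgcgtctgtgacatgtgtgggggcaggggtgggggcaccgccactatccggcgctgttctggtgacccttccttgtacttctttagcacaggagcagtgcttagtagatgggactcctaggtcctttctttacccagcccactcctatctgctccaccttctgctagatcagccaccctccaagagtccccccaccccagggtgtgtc
Itga2b, chr11:102469884-102470133 (GRCm38.p6, minus strand): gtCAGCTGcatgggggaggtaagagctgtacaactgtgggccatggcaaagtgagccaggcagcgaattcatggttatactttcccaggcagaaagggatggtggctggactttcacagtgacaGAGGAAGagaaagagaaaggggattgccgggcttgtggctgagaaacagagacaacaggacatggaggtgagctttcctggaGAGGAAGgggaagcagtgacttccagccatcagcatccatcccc
The window of Itgam, which rose, holds 1 GAGGAAG beginning 84 bases before the start, and that of Itga2b, which fell, holds it at 126 and 44 bases before the start. Neither the window of Itgax nor that of Itgb7 holds any of the 4 motifs. Among the 24 subunit genes (27 windows), 10 were called higher and 9 lower. GAGGAAG was in at least 1 window of 8 genes, 4 of them called higher and 3 lower. Of all 32851 promoter windows 10.6% hold it, a share per window and not per gene, as are those below. GGGCGG was in 8 genes (3 higher and 3 lower, and 32.7% of all windows). CAGCTG was in 7 (3 higher and 3 lower, and 13.0%) and TATAAA in 0 (12.4%). Among the matched genes, the letters of these motifs did not separate those that rose from those that fell. The counts take in Itga5, Itga9 and Itgb1, whose directions did not hold under every setting. A match is a description of the letters only.

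The platelet pair moved in opposite directions. Itga2b, whose protein alpha IIb is made by platelets and their precursors, read −4.96, −4.75 and −5.13 on the Magic-F1 arrays and −0.25, −0.09 and −0.59 on the control arrays. It fell by 4.64 ± 0.16 (24.9-fold), with a signal well above background in 2 of the 3 Magic-F1 samples; with normexp the change was −2.26. Itgb3, which also pairs with alpha v in many cell types, read 4.15, 4.13 and 4.23 against 2.66, 2.68 and 2.76, a rise of 1.47 ± 0.053. A second Itgb3 probe, listed under another sequence record, read −1.31, −1.50 and −1.31 against −1.43, −1.51 and −1.43. Its groups overlapped and its change of 0.08 was not called (limma adjusted p = 0.31), so the rise of Itgb3 rests on 1 of its probes. All 10 tested platelet and megakaryocyte markers were lower in Magic-F1 (median −3.80, summed level 3.09 to 3.17 against 6.07 to 6.28). Of the 10, 4 were well above background on every Magic-F1 array and all 10 on every control array. Pf4 read 2.34, 2.28 and 2.35 against 5.73, 5.68 and 5.93, and Gp9 was well above background on no Magic-F1 array and at least 82.7-fold lower there. The part of these markers in the fall of Itga2b was not tested.

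Itga7 and the beta 1D signal fell, while the tested muscle laminin chains rose slightly. Itga7, the laminin-binding alpha subunit of muscle, read −0.06, −0.16 and −0.16 in Magic-F1 against 2.65, 2.67 and 2.45 in controls. It fell by 2.72 ± 0.074 (6.57-fold; adjusted p = 3.1e-07), and the second probe gave −2.41. Itgb1, its partner, gave a different answer at each of its probes. The common probe shown above read 1.24, 1.36 and 1.30 against 1.65, 1.67 and 1.35, with groups that overlap. Its change of −0.26 was called at an adjusted p of 0.044, lost the call without any of 5 of the 6 arrays in turn, and was 0.18 when arrays were scaled to the spiked-in transcripts. The Itgb1 probe that is spotted 10 times read 0.45, 0.47 and 0.52 against 0.11, 0.14 and 0.16, a rise of 0.34 ± 0.044 with no overlap. The beta 1D probe read −1.73, −1.57 and −1.54 against −0.16, −0.28 and −0.33, and fell by 1.36 ± 0.075 (adjusted p = 6.2e-06). The signal for the muscle splice form was therefore lower in all 3 Magic-F1 arrays, while no single direction holds for Itgb1 as a gene.

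Lama2, the laminin alpha 2 chain of muscle basement membrane, read 0.67, 0.74 and 0.72 in Magic-F1 and 0.02, 0.05 and −0.00 in controls over its 10 spots. It rose by 0.69 ± 0.045 (1.61-fold), and its second probe by 0.93. Lamb2, the beta 2 chain concentrated at neuromuscular junctions, read 3.73, 3.69 and 3.78 against 3.08, 3.10 and 3.13, a rise of 0.63 ± 0.046. Lamc1, the gamma chain that most laminins use, read 4.50, 4.44 and 4.51 against 3.90, 3.88 and 3.86, a rise of 0.60 ± 0.044. Each of the 3 chains was higher on every Magic-F1 array, by 1.52-fold to 1.61-fold. Lamb1, the beta 1 chain, was not well above background on any array at its only probe and was not tested. The 11 tested muscle markers, all lower, had a summed level of 7.74 to 7.80 in Magic-F1 and 10.7 to 10.8 in controls; the laminin chains did not follow them, and the markers' part in the fall of Itga7 was not tested.

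Several integrin genes of connective tissue cells rose. Of 9 tested stromal subunits 5 were higher and 4 lower, with a median of 0.81. Itgb5, which pairs with alpha v to bind vitronectin, read 7.84, 7.83 and 7.90 in Magic-F1 against 5.57, 5.69 and 5.56, a rise of 2.25 ± 0.056 (4.76-fold). Itgav, the alpha v subunit, read 2.16, 2.14 and 2.30 against 0.43, 0.38 and 0.36, a rise of 1.81 ± 0.060. Both subunits of the alpha v beta 5 receptor were thus higher on all Magic-F1 arrays, as was Itgb3 at its brighter probe.

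Itga8, a partner of beta 1 that binds RGD ligands such as nephronectin, read 0.99, 1.08 and 1.15 against −1.28, −1.14 and −1.31. It rose by 2.32 ± 0.069, with 2.33 at its second probe. Itga11, a collagen receptor subunit of fibroblasts, read 4.33, 4.25 and 4.32 against 3.13, 3.06 and 3.19, a rise of 1.18 ± 0.055. Itga1, the other collagen receptor subunit tested, went down, with −3.63, −3.41 and −3.47 against −1.09, −1.17 and −1.18. It fell by 2.36 ± 0.071 (a change of −1.26 with normexp), so these collagen-binding subunits moved apart. The remaining collagen receptor subunits, Itga2 and Itga10, were not well above background on any array.

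Itga9, a receptor subunit for tenascin and VCAM-1, had probes that contradicted each other. The brighter probe, at chr9:118809765-118809824 (mm9), read 0.58, 0.69 and 0.75 in Magic-F1 against −0.22, −0.07 and −0.13, a rise of 0.81 ± 0.067. The other, at chr9:118807900-118807959, read −1.46, −1.35 and −1.45 against 1.28, 1.21 and 1.36, a change of −2.70 ± 0.060. The groups did not overlap at either probe. Which probe is the brighter depends on the arrays used: without any 1 of the Magic-F1 arrays it is the falling probe (−2.74 to −2.68), and the stromal median then lies at −0.20 to −0.13. Itga9 is therefore counted among the higher genes by rule only.

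Itga5, the fibronectin receptor subunit, and Lama4, the laminin alpha 4 chain of vessels and fat, changed little. Itga5 read 2.06, 2.08 and 2.20 against 2.29, 2.27 and 2.27. Its change of −0.16 was called at an adjusted p of 0.029 but not without any of 4 arrays in turn (Magic-F1 1 or 2, control 1 or 2), was −0.07 and not called with normexp (adjusted p = 0.23), and was 0.28 with spike-in scaling. Lama4 read 2.44, 2.47 and 2.45 against 3.04, 3.07 and 2.81, a change of −0.52 ± 0.078. Its other tested probes gave −0.60 and −0.70, and with spike-in scaling the change was −0.08 (adjusted p = 0.33). Itgb8, which with alpha v binds latent TGF-beta, was well above background on no Magic-F1 array and read −3.44, −3.32 and −3.23 in controls. It was at least 3.89-fold lower in Magic-F1 by processed signal (fitted change −3.96). Its normexp change of −0.81 was smaller than that bound. Lama1, Lama5 and Lamc3 were not well above background on any array. The 12 tested stromal markers were mixed, with 4 higher and 7 lower (median −0.20, summed level 9.58 to 9.60 against 10.1 on each control array), and Pdgfra read 0.11, 0.05 and 0.05 against −0.11, −0.11 and 0.00.

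Most epithelial subunits were lower. Of 7 tested, 5 were lower and 2 higher (median −2.43, and −1.33 with normexp). The laminin chains alpha 3 and beta 3, which join in 1 protein, went opposite ways. Lamb3 read −3.71, −3.75 and −3.68 against −1.35, −1.27 and −1.23, a change of −2.43 ± 0.052 (a change of −1.33 with normexp). Lama3 read 0.15, 0.11 and 0.12 in Magic-F1 and was well above background on no control array. It was at least 33.9-fold higher in Magic-F1 by processed signal (fitted change 7.34). It rose by 2.69 with normexp, less than that bound. Its second probe was also well above background on no control array, and at least 3.04-fold higher in Magic-F1. The transcripts of these partner chains therefore did not change together.

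Itga6 and Itgb4, the subunits of the hemidesmosome receptor, were split in the same way. Itga6, which also pairs with beta 1 as a laminin receptor, read 4.88, 4.80 and 4.87 against 3.75, 3.70 and 3.81, a rise of 1.10 ± 0.051 (1.00 at its second probe). Itgb4 read −0.52, −0.45 and −0.47 against 0.76, 0.93 and 0.85, a change of −1.33 ± 0.059 (−1.26 at its second probe). Itga3, a laminin receptor subunit, fell by 2.57 ± 0.074 (a change of −1.41 with normexp), with −0.58 at another probe. The third Itga3 probe was well above background on no Magic-F1 array. Its fitted change was −2.90 (7.46-fold), a size that rests on signal near background and is not a lower limit. Itgb6, an alpha v partner of epithelia, read −3.77, −4.07 and −4.41 against −0.72, −0.76 and −0.53, a change of −3.41 ± 0.17 (a change of −1.74 with normexp). All 7 tested epithelial markers were lower in Magic-F1 (median −2.68, summed level 0.62 to 0.67 against 1.66 to 1.76), and Krt5 was well above background on no Magic-F1 array and at least 9.54-fold lower there. Krt14 passed that mark on 1 of the 3. The part of these markers in the falls was not tested.

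Over the subunit genes, 49 probes were tested, of which 25 were higher, 23 lower and 1 not called. Of the 16 subunit genes with several tested probes, 13 had all of them called in 1 direction. Another 2 (Itga9 and Itgb1) had probes called in opposite directions, and 1 (Itgb3) had a probe that was not called. Of all tested genes 89.1% were called. The same shares over all tested probes, or over all genes with several probes, were not worked out. These counts therefore do not mark the subunit genes out.

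**Figure D3:**
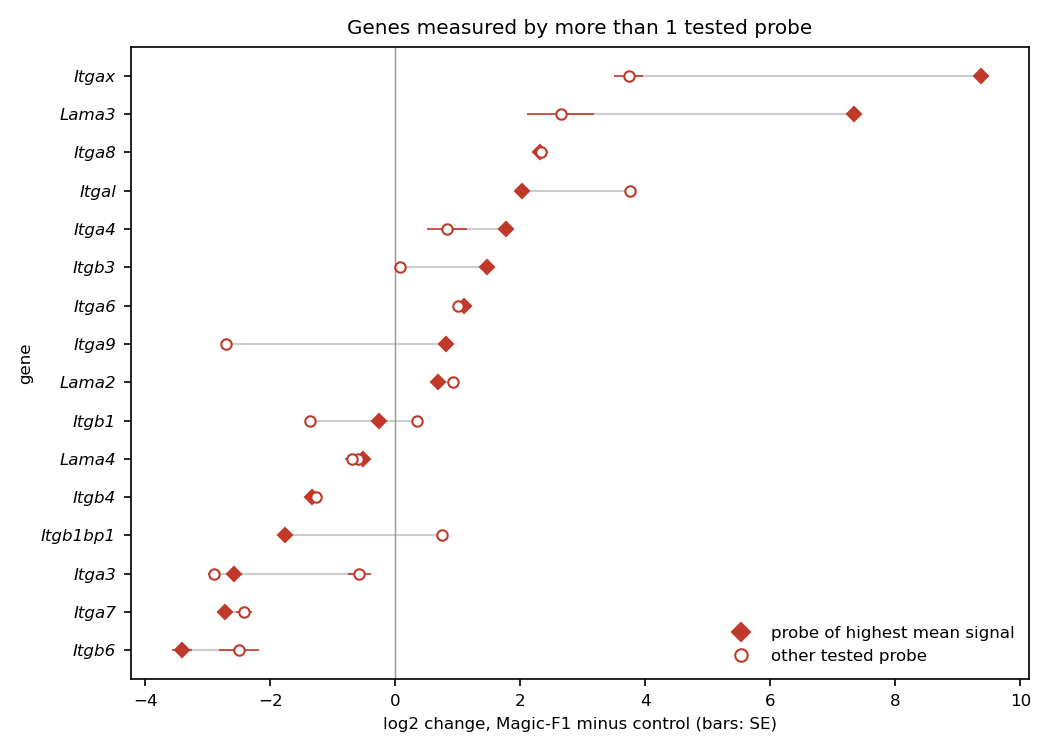
Log2 change (Magic-F1 minus control, with standard error) of every tested probe of the genes shown that have more than 1, with the probe of highest mean signal as a filled diamond and the others as open circles. The points of Itga9 (0.81 and −2.70), Itgb1 (−1.36 to 0.34) and Itgb1bp1 (−1.76 and 0.75) lie on both sides of 0, and both fitted points of Itgax (9.37 and 3.74), whose control signals were near or below detection, lie above it.

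The 5 genes that carry an integrin in their name without encoding a subunit were led by muscle proteins. Nmrk2, listed as Itgb1bp3 in the files and encoding a nicotinamide riboside kinase of muscle that binds beta 1, read −0.74, −0.57 and −0.63 in Magic-F1 against 4.64, 4.69 and 4.83. It fell by 5.37 ± 0.072 (41.3-fold), a larger fall than that of any tested subunit gene. Itgb1bp2, which encodes melusin, a beta 1-binding protein of striated muscle, read 0.58, 0.59 and 0.55 against 5.01, 5.08 and 5.07, a change of −4.48 ± 0.044 (22.4-fold). With Itga7 and beta 1D, these muscle partners of beta 1 were lower on every Magic-F1 array. Itgb1bp1, the widely expressed regulator ICAP-1, had probes in opposite directions (−1.76 and 0.75). Itgb3bp, which encodes a centromere protein, fell by 2.31 ± 0.057 (a change of −1.52 with normexp). Itgbl1, a secreted protein with integrin-like repeats, read −0.46, −0.46 and −0.49 in Magic-F1 and was well above background on no control array. It was at least 20.4-fold higher in Magic-F1 by processed signal (fitted change 4.57). Its normexp change of 1.81 was smaller than that bound.

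The proteins that activate integrins and tie them to actin were divided evenly. Of 33 tested (melusin and Itgb1bp1 among them), 16 were higher and 17 lower, with a median of −0.15. Over all tested genes 40.4% were higher and 48.7% lower (median −0.17), the background for this list and for those that follow. The largest rises were those of Ptk2b, the focal adhesion kinase paralog Pyk2, which read 4.13, 4.26 and 4.29 against −1.41, −1.39 and −1.39 (5.62 ± 0.058), and of Dab2, an endocytic adaptor of integrin beta tails, at 6.10, 6.04 and 6.05 against 2.01, 1.99 and 1.94 (4.08 ± 0.045). The largest falls were those of melusin, given above, and of Tln2, a talin of muscle and brain, at −0.62, −0.62 and −0.49 against 1.91, 1.92 and 1.91 (−2.49 ± 0.053). Some paralogs moved apart and others together. In the pairs given next, chosen after their values were seen, 1 form rose and the other fell. Talin Tln1 rose by 1.99 where Tln2 fell. The blood cell kindlin Fermt3 rose by 3.74 and Fermt2 fell by 1.96. The blood cell parvin Parvg rose by 2.68 and Parva fell by 2.04. The focal adhesion kinase gene Ptk2 fell by 0.73 where Ptk2b rose. In each of these pairs the groups did not overlap for either gene. The same held for all 33 tested genes of the list and for 90.7% of all tested genes, so it does not mark these pairs out. Other paralogs of the list moved the same way, such as the tensins Tns1 (0.64) and Tns3 (2.02), the actinins Actn1 (0.14) and Actn4 (0.43), and Lims1 (−0.92) and Lims2 (−0.16), and the parvin Parvb rose by 2.03 as Parvg did.

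Of the surface partners of integrins, 13 were tested, with 6 higher and 7 lower (median −0.17). The changes were small. The largest rises were those of the proteoglycan Sdc4 (0.97) and the tetraspanin Cd81 (0.94), and the largest falls those of the urokinase receptor Plaur (−1.66) and of caveolin Cav1 (−1.24). Counter-receptors and ligands of the leukocyte and platelet integrins numbered 13 tested, with 7 higher, 4 lower and 2 not called (median 0.22). Vwf, the platelet adhesion ligand, read 4.03, 4.07 and 4.15 against 0.51, 0.50 and 0.50 (3.58 ± 0.049), and Fn1, fibronectin, rose by 1.82. The junctional adhesion molecules Jam2, at 0.66, 0.77 and 0.66 against 4.05, 4.06 and 4.19, and Jam3 changed by −3.41 and −3.33. Of the ligands of the beta 2 receptors, Icam1 rose by 0.64 and Icam2 fell by 1.48, and Vcam1, a ligand of alpha 4 receptors, fell by 1.58. Tested endothelial markers were lower in 8 of 10 (median −4.07, summed level 2.25 to 2.33 against 4.43 to 4.56). Of these 10 markers 4 were well above background on every Magic-F1 array, and Cdh5 and Pecam1 on none. Their part in the rise of Vwf and the falls of Jam2 and Jam3 was not tested.

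Other laminin receptors and basement membrane partners numbered 19 tested, with 7 higher, 10 lower and 2 not called (median −0.19). The sarcoglycans Sgcb (−2.49), Sgcd (−2.36) and Sgca (−2.10), partners of dystroglycan in muscle and named after their values were seen, fell. Bcam, the receptor of the laminin alpha 5 chain, fell by 2.80. Dag1, dystroglycan itself, changed by 0.10 and was not called. Among the rises was that of the collagen IV chain Col4a2 (1.21). Of 9 tested genes of latent TGF-beta activation, 3 were higher, 4 lower and 2 not called (median −1.21). Nrros, which holds latent TGF-beta on myeloid cells for alpha v integrins, read 7.10, 7.17 and 7.09 against 3.02, 3.12 and 3.06 (4.05 ± 0.050), and Tgfb1 rose by 2.64. Ltbp1, well above background on no Magic-F1 array, was at least 2.33-fold lower, and Tgfb3 fell by 2.18. Itgb8 and Itgb6, which with alpha v activate latent TGF-beta, were both lower, while Itgav was higher.

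**Figure D4:**
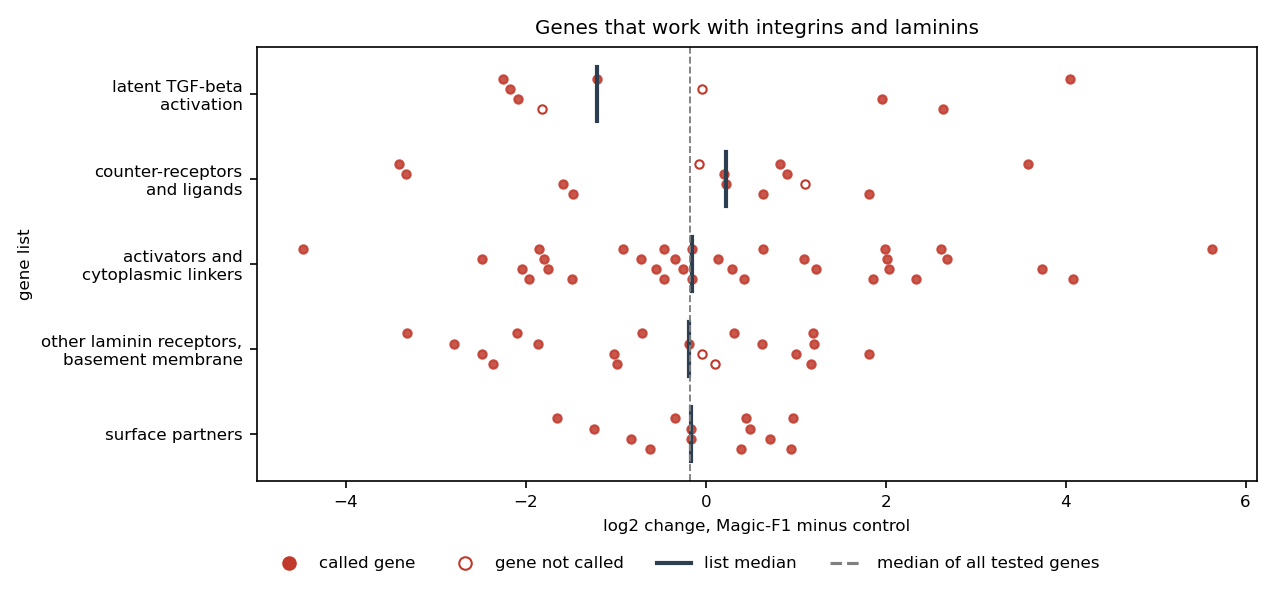
Log2 change (Magic-F1 minus control) of each tested gene of the 5 lists of proteins that work with integrins and laminins, filled where called and open where not, with the list median as a bar and the median of all tested genes (−0.17) as a dashed line. The activators and linkers reach from −4.48 (melusin) to 5.62 (Ptk2b), and the surface partners stay between −1.66 and 0.97.

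Results within slides were alike where they could be had. For both groups 1 slide carried replicates 1 and 3, and there 17 subunit genes were higher and 11 lower. The other slide carried replicate 2 of each group, which allows no test, and all 30 genes kept their direction on it. With arrays scaled to the spiked-in transcripts, the median of all tested genes was 0.27 instead of −0.17 and 58.4% of called genes were higher instead of 45.4%. Under that scaling 18 subunit genes were higher and 10 lower, and Itga5 and Itgb1 changed direction. The labels do not tie the triplicates to separate animals, so the spread behind the p-values may be technical, and 3 arrays a group limit the precision.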

How the data were processed

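Each of the 6 RNA samples, labelled with Cy3, was read on its own Agilent array. The deposited scanner files hold, per the file headers, the processed intensity of each spot after background subtraction, made by Agilent Feature Extraction 10.5.1.1 with no normalization between arrays. The authors also deposited a log2 value per spot and array, which equals the log2 processed signal on 4 arrays (within 1e-06) and differs on both arrays numbered 1; the sources used here do not say how those columns were made. Its column medians were 3.53, 3.50 and 3.59 for Magic-F1 and 3.32, 3.35 and 3.40 for control replicates 1 to 3. Scale and centring of the other 4 columns are those of the scanner values.

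From the scanner files, control spots and outlier spots (59 to 89 per array) were left out, the 75th percentile of an array was subtracted from its log2 signals, and repeat spots were averaged per probe. The test was run on probes that, in 1 group or both, every array flagged well above background. In all, 21187 probes were fitted with limma 3.58.1 in R 4.3.3 (lmFit, eBayes, group as the only term), with 2-sided p-values adjusted by Benjamini-Hochberg over all of them at 0.05. The median residual SD was 0.093. A gene is its tested probe of highest mean. Where no array of a group was well above background, "at least N-fold" sets the bright mean against, per array, the higher of the lowest well-above-background signal and the probe's own. Such a bound holds for the processed signal only, as normexp can give a smaller change. Of the non-control probes, 25097 were named by RefSeq accession (GRCm38.p6) and 16077 kept the file's name; probe positions are the files', on mm9. The fit was tested on simulated data.

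Samples were grouped by their labels. The genes and lists were chosen with earlier results of these data known. Counts cover all genes of the name rule and of the lists; a few single genes are not reported here. Of each list of related genes, the called genes that rose most (2) and fell most (2) are named, and others were chosen after their values were seen; marker lists are given by count, median, summed level and defining genes. Alternatives covered background correction, scaling, filters, slide and replicate blocks, single slides, the variance model, the deposited table, averaging of probes and leaving out each array.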

Additional observations from a re-analysis of the deposited data

How the results depend on the processing

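Of the 19 alternatives, all except the slide of replicate 2 alone allowed a test. Over those with a test, the counts of subunit genes higher, lower and at least 2-fold changed stayed within 1.5 times their values. Leaving out single arrays gave 16 to 17 higher and 11 to 13 lower. Spike-in scaling left 9 lower genes among activators and linkers (17 otherwise) and 3 among surface partners (7 otherwise), and quantile normalization left 4 of the latter. Directions changed for Itga5 (0.28, spike-in scaling), Itgb1 (0.18, spike-in scaling), Itgae (−0.029, normexp) and Itga9 (−0.94 as the mean of its probes, −2.74 to −2.68 without a Magic-F1 array and up to 0.85 without a control array). The stromal median became −0.26 without a filter on dim probes, −0.16 with probes averaged and −0.20 to −0.13 without a Magic-F1 array, and reached 0.85 without a control array. The laminin median became −0.30 without the filter, and the platelet median 1.47 with probes well above background on all 6 arrays, where Itga2b drops out. Of the genes of the name rule, Itga5, Itgb1 and Lama4 lost a call in the same direction under some setting. Replicate numbers did not pair the samples: deviations of same-numbered arrays correlated at −0.003, 0.108 and 0.069. With the replicate block, 17 subunit genes were higher and 11 lower; Itga5 (adjusted p = 0.057) and Itgb1 (0.053) lost their calls. Signal near background limits the sizes given for Itgax, Lama3, Itgb8, Itga2b and Itgbl1.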
